A study of Arabidopsis thaliana with 8 samples.

Results

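The comparison described here set the 2 arrays of a dexamethasone-inducible LEC2-GR line at 4 h of induction against the 2 arrays of the same line without treatment. They are 4 of the 8 arrays of the study and were chosen by their titles. The other 4 arrays, the line at 1 h and non-transgenic seedlings at 4 h, are used beside them. The samples were whole Arabidopsis thaliana seedlings of accession Ws-0, 8 days old, and the RNA of each was hybridized to its own Affymetrix ATH1 array. In the transgenic line the 35S promoter, which is active in most plant tissues, drives a fusion of LEAFY COTYLEDON2 (LEC2) to the glucocorticoid receptor. The uninduced group received no treatment, the 1 h and 4 h groups received dexamethasone for 1 or 4 h, and the wild type group, without the transgene, received it for 4 h. Each group had 2 biological replicates. There was no untreated wild type, so the change from uninduced to 4 h holds dexamethasone, time and handling as well as the fusion, and these cannot be told apart within it. The wild type arrays at 4 h share the first 3 of these with the line at 4 h and were compared with it directly. Where wild type is set against the uninduced line instead, the value also holds the difference between transgenic line and wild type.

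LEC2 is a transcription factor of the B3 domain family that controls embryo development and seed maturation, and it is normally active in developing seeds. The receptor part of the fusion holds the protein in the cytoplasm until dexamethasone binds, after which the fusion can enter the nucleus and act on its target genes. Ectopic LEC2 activity is known to give seedlings embryonic traits, including storage compounds and somatic embryos.

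Signals are the deposited intensities on a linear scale, and where 2 values are given for a group they are replicates 1 and 2 in that order. Changes are on the scale of log2(signal + 45), which understates the change of genes with low signal. A gene was called, and is said to have risen or fallen, when its Benjamini-Hochberg adjusted p over all 22746 probe sets tested was under 0.05 in limma. At 4 h, 4773 probe sets (21.0%) were called, of which 2513 (11.0%) rose and 2260 (9.94%) fell. Without 4 h replicate 2 the count was 3065, with 1661 higher and 1404 lower. The annotation names 13355 loci, of which 1297 (9.71%) rose and 1147 (8.59%) fell. Both 4 h arrays lay above both uninduced arrays for 25.9% of these loci and below them for 28.0%, and the median change over them was −0.02. Only 1557 of the loci carry a gene symbol, and the 60 families described here, with 875 loci, were put together by symbol. A family was counted as gained, or lost, when at least 3 members were called in that direction and their share was at least 1.5 times that of all named loci. By this rule 14 families were gained, 12 were lost, 2 were both and 32 were neither. Loci with a symbol were called more often than the rest, 13.3% higher and 11.2% lower, and against their shares 9 families were gained, 10 were lost and 1 was both.

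Replicates correlated at 0.970 to 0.978 over all probe sets, and the array medians ran from 170 to 191. The ratio of 3' to 5' signal of the actin control probe sets was 6.90 and 13.4 in the uninduced line and 9.21 and 8.64 at 4 h. That of the GAPDH controls was 2.30 and 3.22, and 2.46 and 1.59, in the same order. The part of these ratios in the results was not tested. The annotation gives LEC2 to none of the probe sets, so the labels were not checked against the transgene. Of the seedling markers, the 3 leaf mesophyll genes with a probe set summed to 110930 and 114629 in the uninduced line, 60528 and 70367 at 4 h and 69322 and 70498 in wild type. The 3 root genes summed to 11040 and 11597, to 9406 and 8419, and to 13794 and 12963 in the same order. Most of this sum was the gene PYK10, with 9931 and 10743, 8833 and 7632, and 12590 and 11777. The root marker AT4G26010 had 466.8 and 232.5, 183.8 and 393.2, and 183.8 and 247.8. It was not called at 4 h against uninduced (limma adjusted p = 0.72). None of the 7 listed seed and embryo markers and none of the 3 vascular markers has a probe set of its own name. The instrument records place the uninduced and wild type arrays in an earlier fluidics run than the 1 h and 4 h arrays. This is inferred from the records and not stated in them, and for 4 h against uninduced, run and group cannot be told apart. For 4 h replicate 2 the record includes an operator's remark that the background was high on part of the scan.

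**Figure D1:**
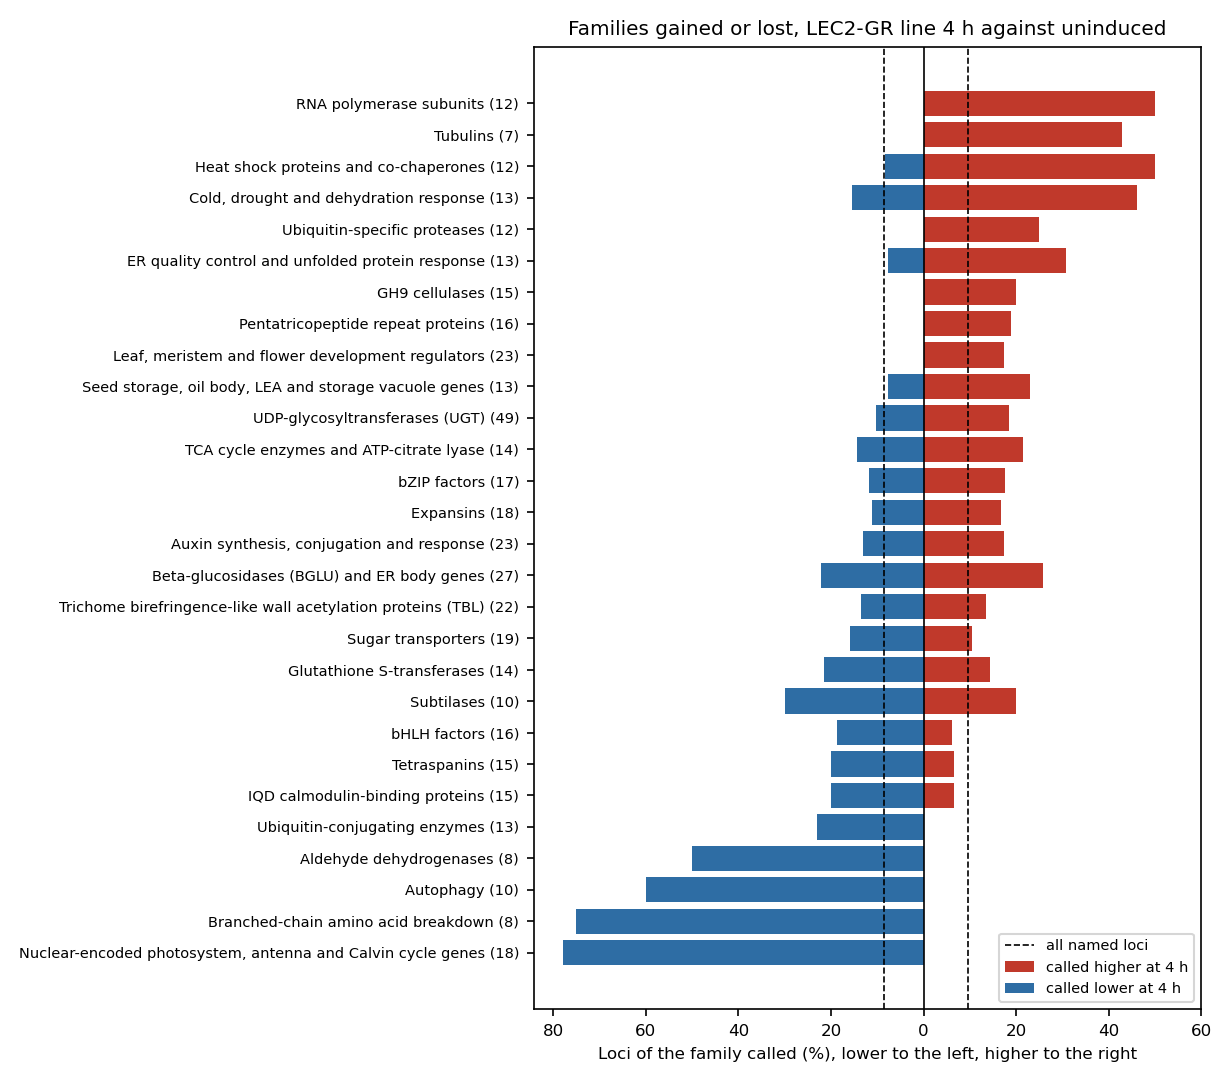
Share of the loci of each of the 28 families counted as gained, lost or both that was called higher (right, red) or lower (left, blue) at 4 h against uninduced, in percent, with the number of loci in parentheses. The dashed lines mark the shares of all named loci, 9.71% higher and 8.59% lower. The photosystem, branched-chain amino acid and autophagy families reach farthest to the left, and RNA polymerase subunits and heat shock proteins farthest to the right.

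Among the families that were lost, breakdown of the branched-chain amino acids leucine, isoleucine and valine fell furthest. Of 8 members 6 fell, the median change was −1.53, and at an unadjusted p under 0.05 none was higher and 7 were lower. MCCA (AT1G03090), which encodes the biotin-carrying subunit of a carboxylase of leucine breakdown, had signals of 4696 and 4387 in the uninduced line, 978 and 728 at 1 h, 253 and 165 at 4 h and 166 and 243 in wild type. The uninduced arrays were the highest, the 1 h arrays lay between them and the rest, and the 4 h and wild type arrays overlapped. MCCA fell by 4.2 on the log2 scale (SE 0.21, limma adjusted p = 8.65e-07), the largest fall of any locus with a symbol. Its partner subunit MCCB (AT4G34030) went from 3679 and 3660 to 1147 and 828 and fell by 1.86 (SE 0.14). Isovaleryl-CoA dehydrogenase, IVD, went from 1578 and 1632 to 399 and 372 and fell by 1.94 (SE 0.14). IVD passes its electrons to the electron transfer flavoprotein, whose ubiquinone oxidoreductase ETFQO fell by 1.56 and whose beta subunit ETFBETA fell by 0.52. The call of ETFBETA was lost whichever of the 4 arrays was left out (limma adjusted p = 0.0656 to 0.106). ALDH6B2, methylmalonate semialdehyde dehydrogenase of valine breakdown, fell by 1.5.

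Wild type seedlings at 4 h also had low levels of these genes. Set against the same uninduced arrays of the line, MCCA was lower in wild type by 4.22. In that comparison 6 of the 8 genes were called lower, against 7.24% of all named loci lower and 8.44% higher. The direct limma test of the line against wild type at 4 h called none of the 8 (0 at an unadjusted p under 0.05). Of all named loci only 1.55% were called higher and 1.06% lower in that test. The median difference between line and wild type was −0.03, and that of MCCA was 0.02 (SE 0.21, limma adjusted p = 0.99). The fall was under way at 1 h, where 4 of the 8 were called lower with a median of −0.74, against 3.37% of all named loci lower and 4.53% higher. From 1 h to 4 h 5 of the 8 fell further, against 3.79% of all named loci, and 3 without 1 h replicate 1 or 4 h replicate 2. MCCA fell by 1.83 over that interval (SE 0.21, limma adjusted p = 0.00049).

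Autophagy genes, whose products enclose cytoplasm for delivery to the vacuole, were also lost. Of 10 members 6 fell and the median was −0.86. At an unadjusted p under 0.05, 1 was higher and 8 were lower. All 6 are members of the ATG8 family of ubiquitin-like proteins that coat the autophagosome. ATG8E (AT2G45170) stood at 2301 and 2043 in the uninduced line, 525 and 333 at 1 h, 354 and 332 at 4 h and 400 and 432 in wild type. Most of the drop was present at 1 h, and its 4 h arrays lay below both wild type arrays. ATG8E fell by 2.51 (SE 0.19, limma adjusted p = 7.38e-06) and its difference between 1 h and 4 h was not called (−0.26, limma adjusted p = 0.498). ATG8F (AT4G16520) went from 6248 and 6013 through 2583 and 2502 at 1 h to 1445 and 1056 at 4 h. It fell by 2.27 (SE 0.14), of which 1.01 came after 1 h (limma adjusted p = 0.0011). ATG8C fell by 1.12. ATG8H fell by 0.95, and it was not called when uninduced replicate 2 (limma adjusted p = 0.0895) or 4 h replicate 2 (0.103) was left out. The other called members were APG8H (−0.93) and APG8A (−0.79). Between the line at 4 h and wild type none of the 10 was called by limma (1 at an unadjusted p under 0.05, lower), against 1.55% of all named loci higher and 1.06% lower.

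Genes of the photosynthetic apparatus fell by less than these but nearly throughout the list. Of 18 nuclear-encoded photosystem, antenna and Calvin cycle genes 14 fell, the median was −0.65, and no member was called higher by limma (0 at an unadjusted p under 0.05). In 16 of the 18 both 4 h arrays lay below both uninduced arrays, against 28.0% of all named loci. The antenna protein gene LHCB4.2 (AT3G08940) had 27657 and 29510 in the uninduced line, 18864 and 18714 at 1 h, 10184 and 10027 at 4 h and 9621 and 10714 in wild type. Its 4 h and wild type arrays overlapped, and the uninduced arrays were the highest. LHCB4.2 fell by 1.5 (SE 0.13, limma adjusted p = 1.5e-05). NdhS, a subunit of the chloroplast NADH dehydrogenase-like complex, fell by 1.20 from 3251 and 2951 to 1413 and 1240. PSB27, an assembly factor of photosystem II, fell by 1.08, and phosphoribulokinase, PRK, of the Calvin cycle fell by 0.97. In whole seedlings, fewer cells of a type and less RNA per cell cannot be told apart. The 3 mesophyll markers with a probe set, RCA, LHCB4.1 and LHCB4.2, are all members of this list. They are therefore no separate measure of the leaf share of the tissue. The part of that share in the result was not tested.

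The number of photosystem genes called was sensitive to the setting. Most members changed by less than 1 on the log2 scale, and 6 to 9 of the 18 were called when any of the 4 arrays compared was left out, 6 without 4 h replicate 1 and 9 without 4 h replicate 2. The count was 7 without the mean-variance trend. After quantile normalization it was 8, the median was −0.45, LHCB4.1 went from −0.57 to −0.05, RCA from −0.65 to −0.16 and PSAE-1 from −0.40 to 0.14. LHCB4.2 was still called there, at −1.23. Against the same uninduced arrays wild type had 12 of the 18 called lower, with a median of −0.62, and 4 without wild type replicate 1 or 5 without uninduced replicate 1. The direct test of line against wild type called none of them by limma (1 at an unadjusted p under 0.05, lower, and 1 called with the filter on low values), and the median difference was −0.02. Of all named loci 1.55% were higher and 1.06% lower in that test. Of 69 genes encoded by the plastid genome itself 3 fell and 1 rose. Without 4 h replicate 1 none of these was called by limma. Of 13 genes of tetrapyrrole and chlorophyll synthesis 2 fell, 1 without either uninduced array or 4 h replicate 1, the larger being CHLM, magnesium-protoporphyrin methyltransferase, from 8767 and 7690 to 2912 and 3577 (fell by 1.34, SE 0.15, limma adjusted p = 0.000111). TRXF2, an f-type chloroplast thioredoxin that activates Calvin cycle enzymes, fell by 1.07.

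The remaining lost families were smaller. Of 8 aldehyde dehydrogenases 4 fell, ALDH6B2 and ALDH11A3 (fell by 0.81) among them, and 2 were called without uninduced replicate 2 or without 4 h replicate 2. Of 13 ubiquitin-conjugating enzymes UBC28 (−1.19), UBC19 (−0.93) and UBC22 (−0.79) fell, and these 3 kept their calls when any 1 array was left out. The IQD calmodulin-binding proteins and the tetraspanins, a family of membrane proteins, each had 3 of 15 lower and 1 higher. The IQD count of those lower was 0 without 4 h replicate 2 and 1 without uninduced replicate 1 or 4 h replicate 1, and the tetraspanin count of those lower was 1 without uninduced replicate 1 or 4 h replicate 1. Of 14 glutathione S-transferases 3 fell and 2 rose, led by GSTU18, which fell by 1.20, and GSTU22, which rose by 1.42, and 1 was called in each direction without uninduced replicate 2 or 4 h replicate 2. Of 10 subtilases 3 fell and 2 rose, but none was called lower by limma without uninduced replicate 2 or 4 h replicate 2, and none higher without either 4 h array. Of 16 bHLH factors 3 fell and 1 rose, and bHLH121 fell by 1.76 from 1812 and 1634 to 497 and 454. Without uninduced replicate 2 or 4 h replicate 2 the bHLH counts were 1 lower and 0 higher.

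Single genes outside these families changed as much as the family members. AKINBETA1 (AT5G21170), a regulatory beta subunit of the energy-sensing kinase SnRK1, had 5878 and 5121 in the uninduced line, 876 and 687 at 1 h, 554 and 431 at 4 h and 480 and 524 in wild type. All arrays with dexamethasone were far below the uninduced ones, and AKINBETA1 fell by 3.37 (SE 0.16, limma adjusted p = 5.46e-07). Pyruvate orthophosphate dikinase, PPDK, fell by 2.26 from 1073 and 792 to 189 and 130. Methionine gamma-lyase, MGL, which degrades methionine, had 810 and 746 in the uninduced line, 117 and 129 at 4 h and 255 and 253 in wild type, and fell by 2.29. MGL was lower in the line than in wild type at 4 h by 0.83 (limma adjusted p = 0.0333), a difference not called when any 1 of the 4 arrays behind it was left out (0.117 to 0.194). GAMMA-VPE, a vacuolar processing protease, fell by 1.37 from 1582 and 1491 to 542 and 589.

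**Figure D2:**
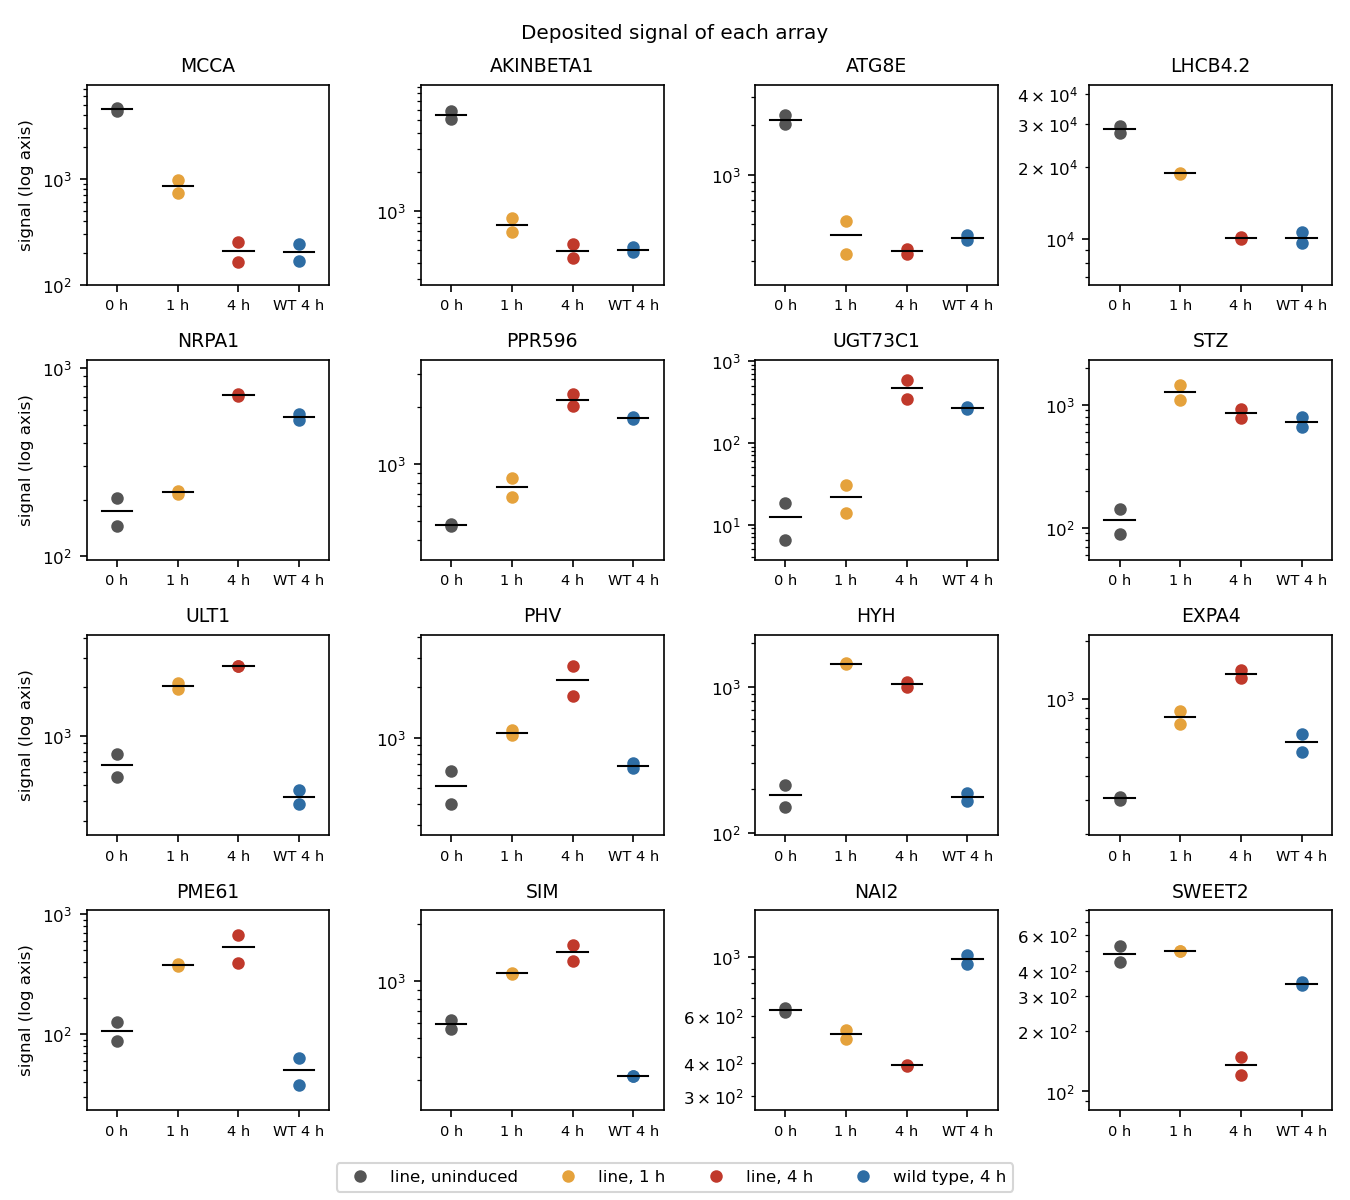
Deposited signal of each array on a log axis for 16 named genes, with 2 points per group and a black bar at their mean, in the uninduced line (0 h), the line at 1 h and 4 h and wild type at 4 h (WT 4 h). MCCA, AKINBETA1, ATG8E and LHCB4.2 are at like levels in the line and wild type at 4 h, whereas ULT1, HYH, SIM and PME61 are high at 4 h in the line and at or below the uninduced level in wild type.

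Among the families that were gained, subunits of the nuclear RNA polymerases rose in the largest share beside heat shock proteins. Of 12 subunits 6 rose and none was called lower by limma (0 at an unadjusted p under 0.05), with a median change of 0.56. NRPA1 (AT3G57660), the largest subunit of RNA polymerase I, which transcribes ribosomal RNA, had 145 and 203 in the uninduced line, 223 and 215 at 1 h, 711 and 727 at 4 h and 571 and 526 in wild type. The 1 h arrays lay just above the uninduced ones and the 4 h arrays above all others. NRPA1 rose by 1.81 (SE 0.19, limma adjusted p = 6.01e-05). NRPA2, the second-largest subunit of the same enzyme, rose by 1.59 (SE 0.14) from 440 and 410 to 1487 and 1256. NRPC2 of RNA polymerase III rose by 1.33 from 138 and 218 to 576 and 448. NRPB7 of RNA polymerase II rose by 1.04, and this call did not hold without 4 h replicate 2 (limma adjusted p = 0.0808).

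The rise of these subunits came after 1 h. At 1 h limma called none of the 12 (1 at an unadjusted p under 0.05, higher), and from 1 h to 4 h 4 rose, against 4.55% of all named loci. NRPA1 rose by 1.53 (limma adjusted p = 0.000636) and NRPA2 by 1.54 (0.000124) over that interval. In wild type 5 of the 12 were called higher than in the uninduced line, with a median of 0.56, and 3 without uninduced replicate 1. In the test of the line against wild type none of the 12 was called by limma (0 at an unadjusted p under 0.05), against 1.55% of all named loci higher and 1.06% lower.

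Pentatricopeptide repeat genes, which encode RNA-binding proteins of chloroplasts and mitochondria, had 3 of 16 members higher and none lower (limma; 0 lower at an unadjusted p under 0.05). PPR596 (AT1G80270) had 474 and 486 in the uninduced line, 672 and 850 at 1 h, 2019 and 2347 at 4 h and 1777 and 1731 in wild type. It rose by 2.08 (SE 0.14, limma adjusted p = 3.58e-06), mostly after 1 h (1.47, limma adjusted p = 0.000158). OTP81, a chloroplast RNA editing factor, rose by 2.09 from a low 23.7 and 60.2 to 387 and 258, and PPR336 rose by 1.49. This family met the rule against all named loci but not against the loci with a symbol.

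Some of the chaperones of the cytosol and the endoplasmic reticulum rose. Of 12 heat shock proteins and co-chaperones 6 rose and 1 fell, with a median of 0.46. The count of those that rose was 3 without uninduced replicate 1 or without 4 h replicate 2. Fes1A, a co-chaperone of HSP70, had 275 and 221 in the uninduced line, 1213 and 498 at 1 h, 1560 and 1739 at 4 h and 1330 and 1074 in wild type. It rose by 2.54 (SE 0.30, limma adjusted p = 0.000145) with its 1 h replicates far apart. Hsp70-2 rose by 1.36 and Hop2, which links HSP70 to HSP90, by 1.14. Its relative Hop3 rose by 1.03, a call that did not hold without 4 h replicate 2 or either uninduced array (limma adjusted p = 0.207, 0.0636 and 0.137). Fes1C fell by 0.95, a call that did not hold without either 4 h array or without uninduced replicate 2 (0.0524, 0.163 and 0.202). In the endoplasmic reticulum 4 of 13 quality control genes rose and 1 fell, with a median of 0.10. BZIP60 (AT1G42990), a transcription factor of the unfolded protein response, had 483 and 492 in the uninduced line, 918 and 789 at 1 h, 1560 and 1342 at 4 h and 1149 and 1219 in wild type. The order of the groups was the same on every array, with no overlap between groups. BZIP60 rose by 1.49 (SE 0.14, limma adjusted p = 2.24e-05), the chaperone CRT1b, a calreticulin, by 0.70 and the co-chaperone ATERDJ3B by 0.81. The call of ATERDJ2A (0.41) lay at the threshold itself and was lost with each left-out array (limma adjusted p = 0.0972 to 0.23). DER2.1, a derlin of protein export from the endoplasmic reticulum, fell by 1.02.

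Genes of the response to cold, drought and dehydration had 6 of 13 members higher and 2 lower, with a median of 0.84. None was called lower by limma without 4 h replicate 2. STZ (AT1G27730), a zinc finger repressor of stress responses also called ZAT10, had 87.9 and 142 in the uninduced line, 1438 and 1097 at 1 h, 782 and 926 at 4 h and 788 and 662 in wild type. It rose by 2.51 (SE 0.20, limma adjusted p = 1.12e-05) and was higher still at 1 h. COR15A rose furthest in this list, by 3.48 (SE 0.51, limma adjusted p = 0.000585). It went from 24.7 and 5.5 to 646 and 591, and had 1941 and 611 in wild type. The call of COR47 (0.59) was lost with the replicate block (limma adjusted p = 0.0556) and without the mean-variance trend (0.131). It was also lost when any 1 of the 4 arrays was left out. The dehydrin LTI30 rose by 1.72, and the lipocalin TIL, which protects membranes in heat and cold, rose by 1.09 from 5134 and 3738 to 9097 and 9704. XERICO, a RING finger protein of abscisic acid accumulation, fell by 0.96, and it was not called without 4 h replicate 2 or either uninduced array (limma adjusted p = 0.22, 0.182 and 0.0501). Set against wild type at 4 h, the line had no called difference for STZ, LTI30 and TIL (0.22, −0.49 and 0.46, limma adjusted p = 0.773, 0.481 and 0.339). The 1 member called there was LEA18 (1.25), which was not called once any 1 of the 4 arrays was left out (0.151 to 0.24).

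Among metabolic enzymes the UDP-glycosyltransferases, which attach sugars to hormones and secondary metabolites, moved in both directions. Of 49 members 9 rose and 5 fell, with a median of 0.06. The count of those that rose was 5 without 4 h replicate 2 and 6 without either uninduced array. UGT73C1 (AT2G36750) had 18.3 and 6.5 in the uninduced line, 30.2 and 13.7 at 1 h, 344 and 590 at 4 h and 261 and 275 in wild type. It was near the bottom of the scale until 1 h, and it rose by 3.12 (SE 0.33, limma adjusted p = 6.06e-05). UGT73B5 rose by 2.42. UGT73B4 rose by 1.31, a call lost without 4 h replicate 2 or either uninduced array (limma adjusted p = 0.0804, 0.0537 and 0.0565). UGT76C2, which glucosylates cytokinins at nitrogen, fell by 1.26. Its relative UGT76C1 fell by 0.95, a call lost without either 4 h array or without uninduced replicate 1 (0.0538, 0.0651 and 0.0861). UGT72E1, which glucosylates monolignol precursors, had 1211 and 1148 in the uninduced line, 536 and 482 at 4 h and 1015 and 952 in wild type and fell by 1.15. It was the 1 member called between the line and wild type (−0.89, limma adjusted p = 0.00309), and that call was lost without wild type replicate 1 (0.0509). With the filter on low values 3 members were called lower and 1 higher there.

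The TCA cycle list was counted as gained, with 3 of 14 members higher and 2 lower, but the members that moved had different roles. IDH-VI, a subunit of mitochondrial isocitrate dehydrogenase, rose by 0.63 and the succinate dehydrogenase subunits SDH1-1 and SDH2-2 by 0.54 and 0.46. None of these 3 calls held without uninduced replicate 1 (limma adjusted p = 0.0588 for IDH-VI, 0.101 for SDH1-1 and 0.087 for SDH2-2). The ATP-citrate lyase subunits ACLA-3 and ACLB-1, which make acetyl-CoA in the cytosol, fell by 0.91 and 0.72 and kept their calls under each alternative run. PDC2, pyruvate decarboxylase of fermentation, rose by 2.31 from 109 and 201 to 866 and 978, and stood at 1419 and 1170 in wild type. APS3, an ATP sulfurylase of sulfate assimilation, rose by 2.38 from 224 and 228 to 1502 and 1244.

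Tubulins, ubiquitin-specific proteases and GH9 cellulases completed this group. Of 7 tubulins TUB9 (0.99), TUB1 (0.58) and TUB5 (0.57) rose, of which 1 was called without uninduced replicate 1 or without 4 h replicate 2. Of 12 ubiquitin-specific proteases, which remove ubiquitin from proteins, UBP21 (1.90), UBP23 (1.06) and UBP24 (0.85) rose. The call of UBP21, whose uninduced arrays read 24.3 and 167, did not hold without uninduced replicate 1 or 4 h replicate 2 (limma adjusted p = 0.0635 and 0.116). Of 15 GH9 cellulases GH9B8 (1.55), GH9C2 (1.20) and GH9A3 (1.15) rose, the last of which was not called once any 1 of the 4 arrays was left out (0.0505 to 0.097).

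**Figure D3:**
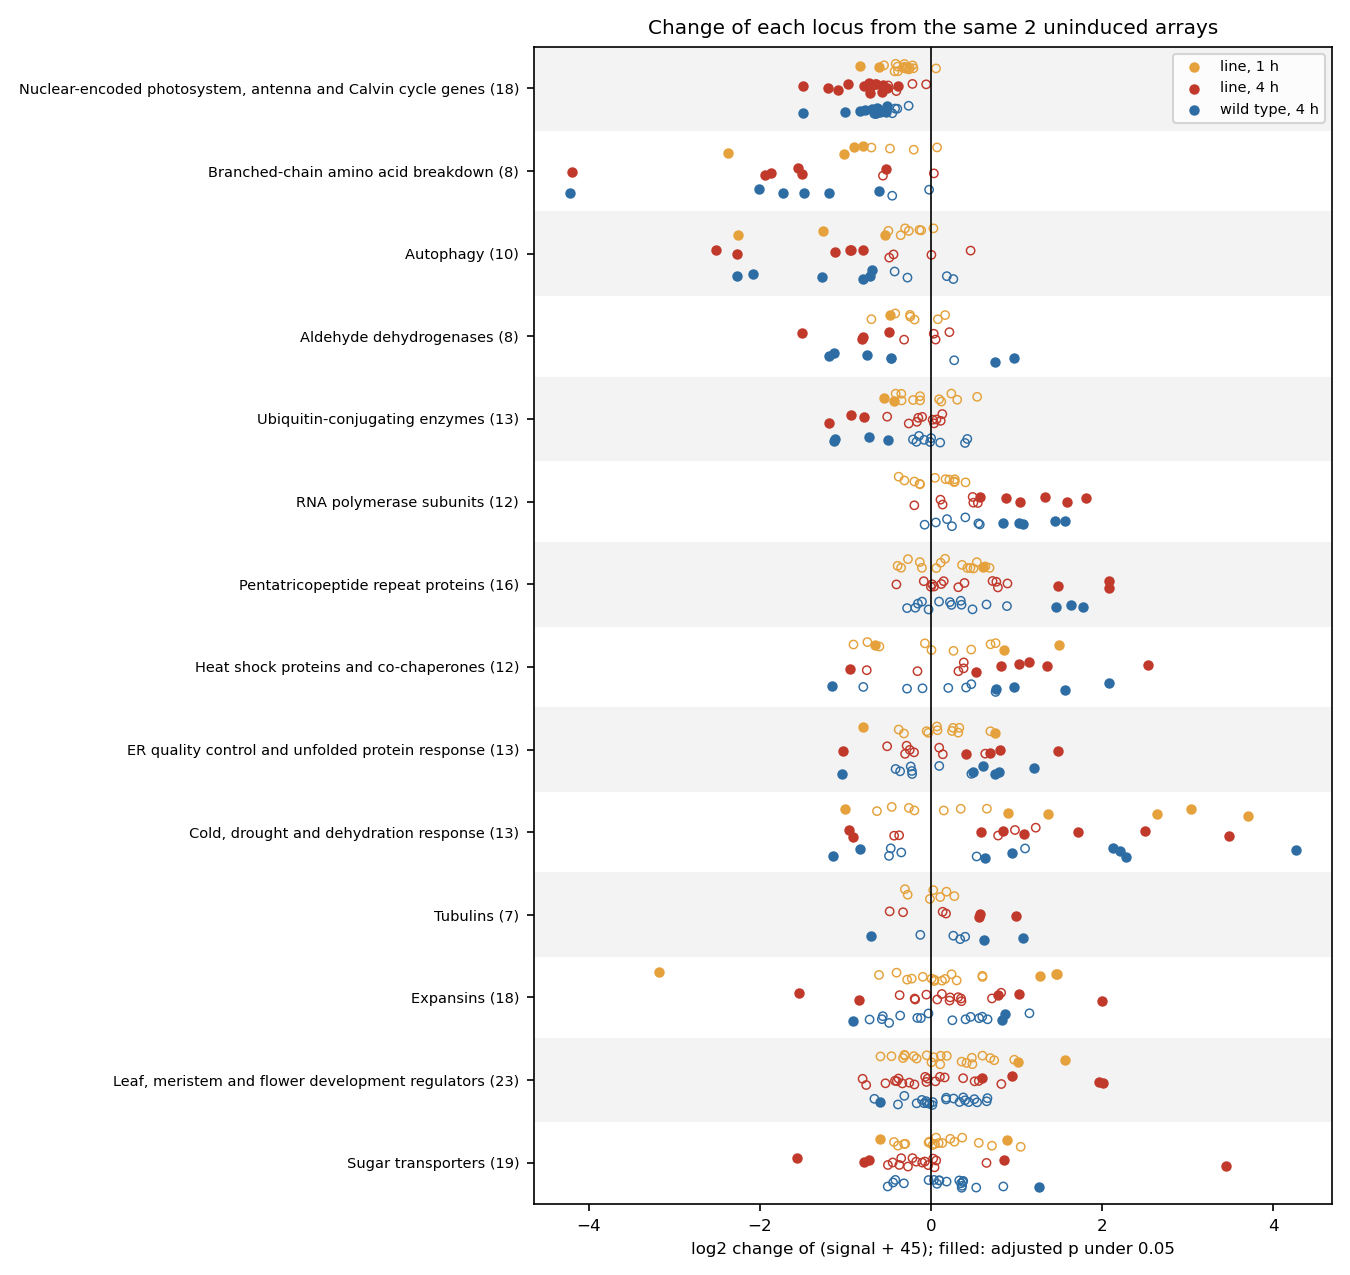
Change of each locus of 14 families, on the scale of log2(signal + 45), in the line at 1 h (orange), the line at 4 h (red) and wild type at 4 h (blue), all against the same 2 uninduced arrays, which the 3 comparisons therefore share. Filled points had an adjusted p under 0.05. In the branched-chain amino acid family the lowest red and blue points lie at like positions, to the left of the lowest orange one. For ATG8E of the autophagy family the orange and blue points nearly coincide (−2.25 and −2.26), with the red one at −2.51. RNA polymerase subunits are near 0 at 1 h.

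The direct comparison of the line with wild type, both at 4 h with dexamethasone, called 755 probe sets (3.32%), and 249 to 341 when any 1 of the 4 arrays was left out, with the fewest without wild type replicate 2. Of the named loci 1.55% were higher in the line and 1.06% were lower. Among the families above, no member was called in this test in the branched-chain amino acid, autophagy, photosystem, RNA polymerase, pentatricopeptide, heat shock, endoplasmic reticulum, tubulin and ubiquitin-specific protease families. At an unadjusted p under 0.05 the autophagy, photosystem and endoplasmic reticulum families had 1 member each and the other 6 had none. With shares this low over all named loci, 0 calls in a short list does not by itself show likeness to wild type. In lists already described, limma called ALDH3F1 (−0.94), ALDH2C4 (−0.69), SBTI1.1 (−1.41), SBT3.3 (−1.31), iqd21 (−0.86), UBC16 (0.96), TET4 (1.58), GH9A3 (1.51), LEA18 (1.25), UGT72E1 (−0.89) and the plastid gene atpH (1.38). Each of these calls was lost when at least 1 of the 4 arrays was left out. Since the instrument runs of the line at 4 h and of wild type are also inferred to differ, run and line cannot be told apart there.

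Regulators of leaf, meristem and flower development had 4 of 23 members higher and none lower at 4 h (limma; 0 lower at an unadjusted p under 0.05). ULT1 (AT4G28190), a SAND domain protein that limits meristem size and acts with the trithorax group, had 556 and 773 in the uninduced line, 2122 and 1941 at 1 h, 2699 and 2678 at 4 h and 380 and 467 in wild type. All induced arrays of the line were above both uninduced arrays, and both wild type arrays were below both uninduced ones. ULT1 rose by 1.96 (SE 0.16, limma adjusted p = 1.14e-05), and the line exceeded wild type by 2.55 (SE 0.16, limma adjusted p = 1.34e-05). PHV (AT1G30490), a class III HD-ZIP factor that specifies the upper side of leaves, had 402 and 632, then 1034 and 1108 at 1 h, 2673 and 1777 at 4 h and 705 and 657 in wild type. PHV rose by 2.02 (SE 0.22) and exceeded wild type by 1.62 (SE 0.22, limma adjusted p = 0.00192). ULT1 and PHV kept both calls when any 1 array was left out. The 2 further members that rose, SHI (0.95) and LEP (0.60), were not called without uninduced replicate 1 (limma adjusted p = 0.186 and 0.109) or without either 4 h array (0.097 and 0.182 for SHI, 0.0987 and 0.138 for LEP). Neither was called against wild type (0.529 and 0.482). The median over the 23 loci was −0.04, and the count was 2 without uninduced replicate 1 or without either 4 h array.

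HYH (AT3G17609), a bZIP factor and the close homologue of the light-signalling factor HY5, had 151 and 212 in the uninduced line, 1442 and 1454 at 1 h, 1084 and 1006 at 4 h and 164 and 188 in wild type. The wild type arrays lay inside the range of the uninduced ones. HYH rose by 2.28 (SE 0.17, limma adjusted p = 7.66e-06) and exceeded wild type by 2.30 (SE 0.17, limma adjusted p = 4.13e-05). Of the 17 bZIP factors 3 rose and 2 fell, and 1 fell with any 1 array left out. Without uninduced replicate 2 the count that rose was 5. BZIP60 and bZIP44 rose, and BZIP61 fell by 1.29, without a called difference from wild type (limma adjusted p = 0.43, 0.969 and 0.955). The call of bZIP44 was lost without 4 h replicate 1 (0.0555).

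SIM (AT5G04470), the SIAMESE inhibitor of cyclin-dependent kinases that drives endoreduplication in trichomes, was 1 of 2 of the 19 cell cycle genes that rose. It had 560 and 625 in the uninduced line, 1096 and 1104 at 1 h, 1274 and 1556 at 4 h and 316 and 317 in wild type. SIM rose by 1.19 (SE 0.14, limma adjusted p = 0.000153), was lower in wild type than in the uninduced line by 0.82 and differed between line and wild type by 2.01 (SE 0.14, limma adjusted p = 2.76e-05). The 8 histone genes had 1 higher and 2 lower, and none was called by limma without uninduced replicate 1.

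The cell wall lists held single genes with large changes. The expansins, which loosen the wall, had 3 of 18 members higher and 2 lower, and 1 lower with any 1 array left out. EXPA4 (AT2G39700) had 299 and 313 in the uninduced line, 746 and 868 at 1 h, 1294 and 1424 at 4 h and 664 and 535 in wild type. EXPA4 rose by 2.00 (SE 0.15, limma adjusted p = 7.89e-06), wild type was higher than the uninduced line by 0.87, and the line exceeded wild type by 1.13 (SE 0.15, limma adjusted p = 0.00217). Of 10 XTH genes, which cut and rejoin xyloglucan, 2 rose (1 without uninduced replicate 1 or 4 h replicate 1) and 1 fell. XTH33 had 376 and 317, then 481 and 1033 at 1 h, 1831 and 1928 at 4 h and 430 and 435 in wild type. XTH33 rose by 2.30 (SE 0.26) and exceeded wild type by 2.01 (SE 0.26, limma adjusted p = 0.00162). EXGT-A3 of the same family fell by 1.37. Against wild type 1 of the 10 was higher and 2 were lower, and none was lower by limma without either wild type array.

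Of 5 pectin methylesterases and polygalacturonases, PME61 and ATPMEPCRB rose and PMEPCRF fell. PME61 (AT3G59010) had 126 and 88.4 in the uninduced line, 371 and 386 at 1 h, 394 and 670 at 4 h and 37.3 and 63.3 in wild type. PME61 rose by 1.89 (SE 0.30, limma adjusted p = 0.000907) and exceeded wild type by 2.57 (SE 0.30, limma adjusted p = 0.000676). ATPMEPCRB rose by 1.73 and PMEPCRF fell by 1.24, with differences from wild type of 0.81 and −0.70 that were not called (limma adjusted p = 0.135 and 0.146). The TBL proteins, which acetylate wall polysaccharides, had 3 of 22 members higher and 3 lower, with TBL15 rising by 1.70 and TBL25 falling by 1.04. TBL, expansins, UGTs, bZIP factors and development regulators did not meet the rule against loci with a symbol.

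**Figure D4:**
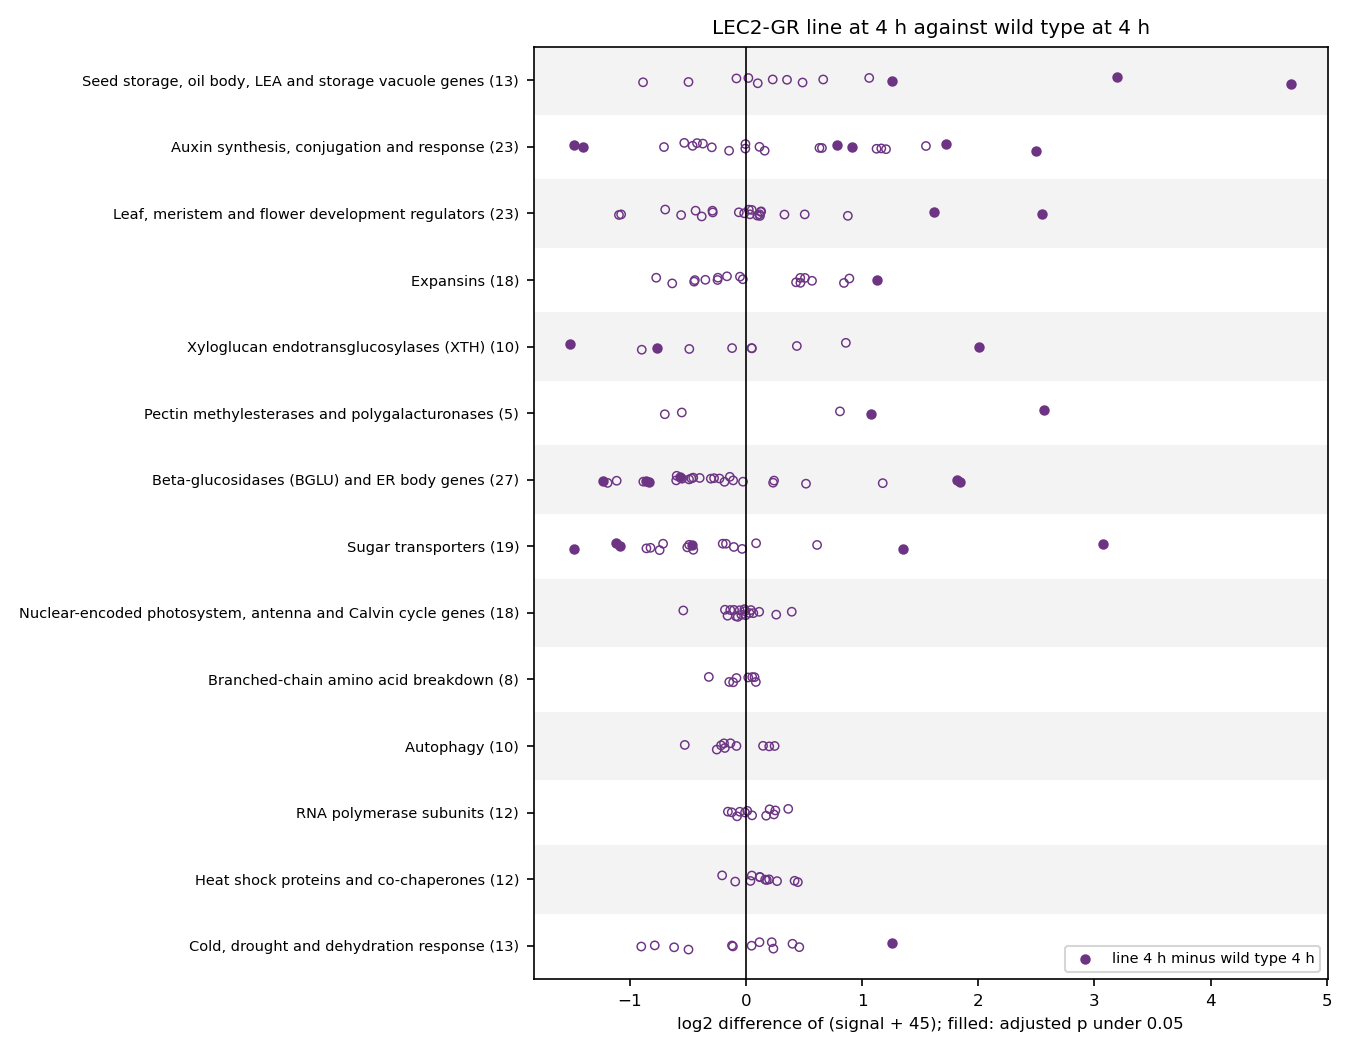
Difference of each locus of 14 families between the line at 4 h and wild type at 4 h, on the scale of log2(signal + 45). Filled points had an adjusted p under 0.05. The points of the photosystem, branched-chain amino acid, autophagy, RNA polymerase and heat shock families are open and lie near 0, and the filled points belong to the seed, auxin, development, cell wall, beta-glucosidase and sugar transporter families and 1 locus of the cold and drought family.

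Beta-glucosidases and genes of the ER body, a compartment of the Brassicaceae that stores beta-glucosidases against herbivores, were counted as both gained and lost. Of 27 members 7 rose and 6 fell, and the count of those that rose was 4 without uninduced replicate 2 or without 4 h replicate 1. BGLU44 rose by 1.08 from 2322 and 2474 to 5314 and 4915, and BGLU28 by 1.92 from 58.1 and 4.8 to 239 and 214. BGLU45 fell by 2.16, to 21.8 and 25.3. The jacalin-related lectin JAL22 fell by 1.76 from 899 and 1096 to 258 and 265. NAI2 (AT3G15950), required for ER body formation and also on the root marker list, had 642 and 622 in the uninduced line, 530 and 493 at 1 h, 389 and 394 at 4 h and 1020 and 938 in wild type. It fell by 0.63 in the line (SE 0.14, limma adjusted p = 0.00765), was higher in wild type than in the uninduced line by 0.60, and was lower in the line than in wild type by 1.23 (SE 0.14, limma adjusted p = 0.000637). PYK10, the main ER body beta-glucosidase and another root marker, went from 9931 and 10743 to 8833 and 7632 and was not called against the uninduced line (limma adjusted p = 0.0939). NAI2 and PYK10 were singled out after their values were seen. The part of the root share of the tissue in these values was not tested.

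Sugar transporters were counted as lost, with 3 of 19 members lower and 2 higher, though not against the shares of loci with a symbol. SWEET1 and SFP2 among these were not called once any 1 of the 4 arrays was left out. SWEET2, a sugar carrier of the vacuole membrane, had 532 and 441 in the uninduced line, 502 and 502 at 1 h, 148 and 121 at 4 h and 351 and 339 in wild type. It fell by 1.56 (SE 0.19, limma adjusted p = 0.000162), and at 1 h its difference from the uninduced line was 0.05 (limma adjusted p = 0.94). SWEET2 differed from wild type by −1.12 (limma adjusted p = 0.00767), a call lost without 4 h replicate 2 (0.0711) or either wild type array (0.0875 and 0.0788). SWEET11, a sucrose exporter of the phloem, fell by 0.78 (SE 0.10) from 4028 and 4220 to 2331 and 2432. SWEET7 moved the other way, from 5.3 and 15.8 to 573 and 551, and rose by 3.46. Against wild type 4 of the 19 were lower and 2 were higher, and with any 1 array left out 0 or 1 was lower and 1 was higher.

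Seed and auxin genes were the lists closest to the known role of LEC2. Of 13 seed storage, oil body, late embryogenesis abundant (LEA) and storage vacuole genes 3 rose and 1 fell, with a median of 0.33. The 1 that fell was BZIP53 (−0.38), a call lost when any 1 of the 4 arrays was left out (limma adjusted p = 0.0848 to 0.231) and with the replicate block (0.0502). The 3 that rose were OLEO3 (3.52), an oleosin, M10 (3.31), a LEA protein, and LTI30, which is on the cold list too. The list reached the minimum of 3 calls only with LTI30, whose difference from wild type was not called. OLEO3 had 253 and 139 in the uninduced line, 457 and 439 at 1 h and 2647 and 2623 at 4 h, so that its largest step came after 1 h (2.44, limma adjusted p = 0.00024). M10 was at 4.1 and 4.8 without treatment, 7.7 and 14.3 at 1 h, 471 and 423 at 4 h and 11.9 and 5.4 in wild type. Against wild type limma called 3 of the 13 higher and 0 lower (4 and 1 at an unadjusted p under 0.05). Of 23 auxin genes 4 rose and 3 fell. The largest rise was that of YUC4 (2.22). The largest fall was that of IAA29, by 2.57 (SE 0.27, limma adjusted p = 5.76e-05). IAA29 was also lower in the line than in wild type (−1.48, limma adjusted p = 0.0115). IAA18, a repressor of auxin response, fell by 1.64 from 1539 and 1675 to 536 and 435, and its relative IAA31 rose by 1.43 from 10.5 and 8.2 to 119 and 85.3. The differences of IAA18 and IAA31 from wild type were not called (−0.42 and 1.13, limma adjusted p = 0.34 and 0.0697). Over all 23 auxin genes the same test called 4 higher in the line and 2 lower, against 1.55% and 1.06% of all named loci. At an unadjusted p under 0.05, 10 were higher and 5 were lower there. This family met the rule in both directions against all named loci and in neither against the loci with a symbol.

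AOP3 (AT4G03050), a dioxygenase that modifies the side chain of glucosinolates, had 28.5 and 8.2 in the uninduced line, 84 and 62.7 at 1 h, 514 and 464 at 4 h and 64.1 and 47.2 in wild type. It rose by 3.09 (SE 0.31, limma adjusted p = 4.25e-05) and exceeded wild type by 2.41 (SE 0.31, limma adjusted p = 0.0014). AR781 rose by 2.78 and exceeded wild type by 1.73 (limma adjusted p = 0.00119). Of 15 PUB and ATL ubiquitin ligases 2 rose and 2 fell, and without uninduced replicate 2 or 4 h replicate 2 none was called lower by limma. PUB23, a ligase that dampens immune responses, rose by 2.29 from 114 and 98.7 to 697 and 696, and its relative PUB22 by 1.16. PUB23 exceeded wild type by 1.11 (limma adjusted p = 0.0278), which did not hold without either 4 h array or wild type replicate 2 (0.173, 0.19 and 0.259).

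A set of 4 genes peaked or bottomed at 1 h and had moved part of the way back by 4 h. LTI30 had 455 and 407 in the uninduced line, 8234 and 4617 at 1 h and 1863 and 1242 at 4 h, and it dropped by 1.99 from 1 h to 4 h (limma adjusted p = 0.000784). XTH18 had 684 and 790, then 3651 and 4809, then 1323 and 1095, and dropped by 1.76 over that interval (limma adjusted p = 9.85e-05). At 4 h it was above the uninduced level by 0.68, a call lost without 4 h replicate 1 (0.09) or uninduced replicate 1 (0.0784). The beta-glucosidase BGLU40 had 125 and 257, then 1669 and 1590, then 677 and 500, and dropped by 1.42 from 1 h (limma adjusted p = 0.00446, 0.058 without 4 h replicate 2). In the opposite direction EXPA8 had 1689 and 1593, then 148 and 135, then 379 and 750, and rose by 1.64 from 1 h to 4 h (limma adjusted p = 0.0016) while it stayed 1.54 below the uninduced line. These 4 genes were picked for this pattern. That their 1 h arrays did not overlap their 4 h arrays follows from the choice. Of all named loci 4.55% were called higher and 3.79% lower from 1 h to 4 h.

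Several large families showed few or no calls. Of 40 AGAMOUS-like MADS-box factors none was called by limma (1 higher and 2 lower at an unadjusted p under 0.05). Their median signal over all arrays was 22.1, near the bottom of the scale. None of 16 mitochondrially encoded genes (0 at an unadjusted p under 0.05), 12 ESCRT and VPS proteins (4), 8 glutamate receptor-like channels (2), 7 cation/H+ exchangers (1) and 6 cytokinin response regulators (0) was called. Of 24 cytochrome P450s 2 rose (0 without uninduced replicate 1 or either 4 h array), and of 29 serine carboxypeptidase-like proteins 1 rose and 2 fell. A low signal limits what these counts can show: 15022 of the 22746 probe sets passed the filter on low values that was tried as an alternative.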

How the data were processed

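RNA from 8 arrays (4 groups of 2 biological replicates) was read on Affymetrix ATH1. The deposited values are intensities on a linear scale, 1 per probe set and array, which were made with MAS5 per the submitters' processing notes. The version is not given in the sources used here. The trimmed mean of every array (2% off each end) was 500.05, so the authors' values were already scaled to a common level. No further normalization was applied. Probe sets were paired with 1 gene each by the platform annotation and updated through the TAIR10.1 RefSeq table: 13513 of 22746 had 1 gene, of which 13436 matched, 503 had several and 8730 were not listed. A locus with several probe sets was represented by the one with the highest mean over all arrays. Names were taken from these tables only.

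After leaving out 64 control probe sets, log2(value + 45) was fitted with limma 3.58.1 in R 4.3.3 (lmFit and eBayes with a mean-variance trend) over all 8 arrays and 4 groups, with 4 residual and 6.79 prior degrees of freedom. No filter was applied, and p-values were adjusted by Benjamini-Hochberg over all 22746 probe sets. The number of arrays limits the precision. The p-values rest on a spread between replicates that was estimated over all 8 arrays, not only the 4 compared. The script was tested on simulated data. Alternatives were a filter on low values, pseudocounts of 1 and 200, quantile normalization, the 4 arrays alone, a replicate block, no trend and leaving out each array.

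The genes named were drawn from the 15 largest rises and the 15 largest falls and from up to 4 called genes in each direction of a described family. Of the largest changes, loci without a symbol are given only for AT5G02230 and AT3G43270. ETFBETA, APG8A, APG8H, LEA18, NAI2, PYK10, scpl35, TRM19, THI2.2 and atpH, and the genes RCA, LHCB4.1, PSAE-1 and those called against wild type in lists already described, fall outside that rule and were chosen after their values were seen. The root marker AT4G26010 also falls outside that rule and was added with its values known. The members, families and lists were chosen with earlier results of these data known. Families were rewritten by gene symbol once the coverage of the annotation was seen. The 15 largest rises and falls among loci with a symbol, the shares of loci with a symbol, the left-out arrays of the other 4 comparisons and the family values per setting were added after seeing the data. Sequences and coordinates were not used here.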

Additional observations from a re-analysis of the deposited data

Results flagged for a closer look

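A set of 6 genes was called in opposite directions at 4 h in the line and in wild type. Both were set against the same 2 uninduced arrays. A call in the direct limma test between line and wild type was also required. That difference is the line's change minus that of wild type, so its call is not separate evidence. The search covered only the 875 family loci and the lists of largest rises and falls. The number over all named loci was not counted, so 6 is not a count for the whole array. The arrays of wild type and of the line at 4 h are inferred to come from different fluidics runs, and the part of the run in these differences was not tested. In 5 of the 6 the line was above and wild type below the uninduced level. Wild type change here means wild type at 4 h minus the uninduced transgenic line. It holds the difference between line and wild type as well as dexamethasone, time and handling. The oleosin OLEO3 exceeded wild type by 4.70 on the log2 scale, with a wild type change of −1.18 that was not called without uninduced replicate 1 or wild type replicate 1 (limma adjusted p = 0.0701 and 0.0818). AT5G02230 exceeded wild type by 4.58 and had 504 and 533 in the uninduced line, 7540 and 7656 at 1 h, 7110 and 8528 at 4 h and 267 and 301 in wild type. It was already at its 4 h level at 1 h. AT3G43270 exceeded wild type by 4.23 and had 454 and 582, then 1931 and 2241 at 1 h, 6212 and 6191 at 4 h and 289 and 289 in wild type. The meristem regulator ULT1 exceeded wild type by 2.55, with a wild type change of −0.59 that was not called without uninduced replicate 2 or wild type replicate 1 (limma adjusted p = 0.193 and 0.208). The cell cycle inhibitor SIM exceeded wild type by 2.01, with a wild type change of −0.82. NAI2 of the ER body went the other way, with a difference of −1.23 between line and wild type and a wild type change of 0.60. The line-against-wild-type call of each of the 6 held under the filter, quantile normalization, the replicate block and every left-out array.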

How the results depend on the processing

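Of the 164 genes chosen for naming, 114 kept their call at 4 h against uninduced under each alternative run, 50 lost it under at least 1, and 0 changed sign. Calls were lost most often without 4 h replicate 2 (44 genes). The counts of called probe sets fell in each setting that left out 1 array, where fewer samples enter the fit. They moved by over 1.5 times in some of these settings, and for 4 h against uninduced only without 4 h replicate 2. For 4 h against uninduced the count of 4773 went to between 3065 and 3491, with 1661 to 1947 higher and 1404 to 1544 lower. For 1 h against uninduced 2076 went to between 1207 and 1598, with 706 to 942 higher and 477 to 656 lower. For 4 h against 1 h 2299 went to between 1096 and 1907, with 574 to 1006 higher and 512 to 901 lower. For wild type against uninduced 4045 went to between 2199 and 2830, with 1159 to 1580 higher and 1040 to 1250 lower. For the line against wild type 755 went to between 249 and 341, with 162 to 192 higher and 87 to 156 lower. The other settings kept the 4 h count within 1.5 times, from 3809 without the trend to 5354 with the filter.

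The replicate numbers do not pair the samples, since deviations of same-numbered arrays from their group means correlated between −0.058 and 0.035. With the replicate block 4613 probe sets were called at 4 h, 2447 higher and 2166 lower. Probe sets near the bottom of the scale can show only large changes. The cause of the lost calls was not tested beyond the smaller number of arrays.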

Other observations

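Other lists held single genes called in the test of the line against wild type, both at 4 h. Of the serine carboxypeptidase-like genes 3 of 29 were called lower in the line, 1 without 4 h replicate 2 or either wild type array, and scpl35 (−1.21) was called with any 1 array left out. TRM19, of a family of microtubule-associated proteins, was higher by 1.26 (limma adjusted p = 0.0019) and was also called with any 1 array left out. The thionin THI2.2, of a family of small antimicrobial peptides, was higher by 2.82 and lost its call in none of the same settings. Of the 69 plastid-encoded genes 1 was called, atpH (1.38), and it was not called once any 1 of the 4 arrays was left out.

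Stomatal genes had 2 of 7 members lower at 4 h against uninduced, and 1 when any 1 of the 4 arrays was left out. STOMAGEN, a secreted peptide that promotes stomata, fell by 0.89 from 1515 and 1420 to 871 and 681 (limma adjusted p = 0.00195). FMA, a bHLH factor of guard cell fate, fell by 0.94 from 232 and 270 to 109 and 108, and it had 167 and 176 in wild type. FMA was the member whose call was lost with each left-out array (limma adjusted p = 0.0607 to 0.116). These genes were chosen for this paragraph after their values were seen.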
